A study of Mus musculus with 77 samples.

Results

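The bins described here are the stretches of the autosomes that replicated earlier in S phase at the 8-cell stage than at the 4-cell stage, in mouse embryos from somatic cell nuclear transfer (SCNT). They number 519 of 29620 autosomal bins of 80 kb with enough data at both stages. They were chosen by their replication states in mid-S cells, those with 30 to 70% of their called autosomal bins replicated. A bin was kept where at least 12 of the 4-cell and at least 20 of the 8-cell mid-S cells had a call. For each stage, the percent of called mid-S cells with the bin replicated was taken minus that stage's mean over kept bins, and a member had a value at least 35 percentage points higher at the 8-cell stage. Members made up 1.75% of the kept bins, and 1008 bins (3.4%) differed by as much in the opposite direction. Because the measured values chose the members, their levels and differences in mid-S cells are given as a description, with no test.

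Cells copy their genome in a set order, with some stretches copied early in S phase and others late. In differentiated cells, early stretches are on the whole rich in active genes and open chromatin, and late stretches are on the whole poor in genes and tend to lie at the nuclear lamina. A programme of this kind is laid down during early development. In SCNT, the nucleus of a somatic cell is placed in an oocyte whose own chromosomes were removed, so the transferred genome passes through the first cleavages in the cytoplasm of the oocyte.

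The assay was single-cell Repli-seq, which reads from the DNA copy number of 1 cell which parts of its genome were already copied. Each sample was 1 blastomere of a BDF1 embryo cultured in vitro in CZB medium after SCNT, and the treatment was the same in both groups. The groups differed in stage, 4-cell (28 cells of 14 embryos) or 8-cell (49 cells of 12 embryos). The cell type of the nuclear donors is not given in the sources used here, and fertilised embryos were not analysed here. The mid-S cells that entered the rule were 18 4-cell cells of 9 embryos and 28 8-cell cells of 10 embryos, so 1 cell weighs 5.56 points in a 4-cell percent and 3.57 points in an 8-cell percent. Cells of 1 embryo are not independent, and the embryo is the replicate in what follows. Read depth per cell is unknown, and between 27057 and 29849 autosomal bins had a call in a cell. All 12 cells whose titles carry the name mEmb04C are 4-cell cells and form the earlier batch of the annotation. The later batch, with the title sets DEP_01_162 and DEP_01_164, holds the other 4-cell cells and all the 8-cell cells, so batch and stage can be told apart only within it.

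Some mid-S cells had whole chromosomes in a single state. The 2 mid-S cells of 4-cell embryo 6 held 8 such chromosomes each. In one of them chromosomes 1, 4, 5 and 8 were at least 95% replicated and chromosomes 10, 11, 12 and 19 were at or near 0%. In the other, chromosomes 1, 4, 5 and 8 were at 0%, chromosomes 11, 12 and 19 were at 99.2 to 100%, and chromosome 10 was again at 0%. Among 8-cell cells, 4 cells of 4 embryos held 5 such chromosomes, all unreplicated. Runs of 1 state of 25 Mb or more occurred in 6 4-cell and 12 8-cell mid-S cells, and the 6 were among the 8 mid-S 4-cell cells of the DEP sets. With whole chromosomes of 1 state set to no call in those cells, 570 bins met the rule, of which 488 were among the 519.

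The bins started from the late and middle parts of the 4-cell order, not from its earliest part. A member was replicated in a median of 38.9% of 4-cell mid-S cells, with a range of 0 to 66.7%. At the 8-cell stage the median was 75% and the range 32.1 to 100%. The kept bins as a whole had medians of 55.6% and 46.4%. Of the members, 136 started between 0 and 25%, which is 1.79% of all kept bins that started there. Another 226 started between 25 and 50% (4.38% of such bins) and 157 between 50 and 75% (2.72%). None of the 11081 bins that started at 75% or more was a member, and such a bin could not have met the rule even at 100% in 8-cell cells.

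The bins that started latest mostly arrived in the middle of the 8-cell order. Of the 136 that started under 25%, 53 reached 25 to 50%, 78 reached 50 to 75% and 5 reached 75% or more. The 226 that started at 25 to 50% were divided into 113 at 50 to 75% and 113 at 75% or more. All 157 that started at 50 to 75% were at 75% or more. The threshold fixes the lower bound of each destination: a member that started at 25% or more had to end above 50%, and one that started at 50% or more had to end above 75%. In all, 275 members were replicated in at least 75% of 8-cell mid-S cells. Against the stage means of 55.1% and 48.7%, 357 members went from below the mean to above it, 109 were above it at both stages and 53 were at or below it at both.

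**Figure D1:**
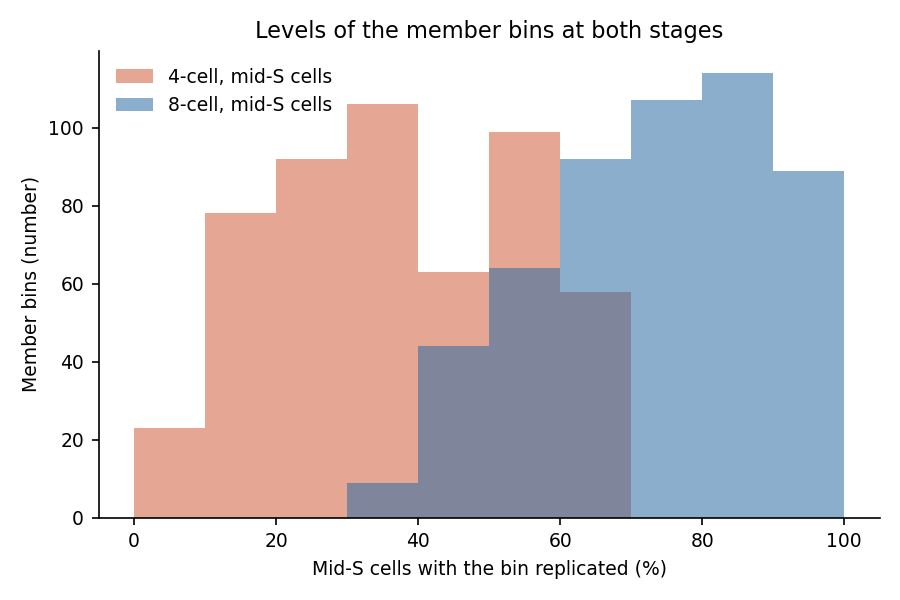
Histograms of the percent of mid-S cells in which each of the 519 member bins was replicated (x axis) at either stage, with the number of bins on the y axis. The 4-cell values end at 66.7% and have a median of 38.9%, and the 8-cell values start at 32.1% and have a median of 75%.

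The difference between the stages had a median of 41.3 points among members and an SD of 17.3 points over all kept bins. It lay between 35 and 40 points in 216 members, between 40 and 45 in 161, between 45 and 50 in 63 and at 50 or more in 79. The smallest was 35.4 points, the nearest bin outside the threshold was at 34.96, and 440 bins lay between 30 and 35 points, so the set has no natural edge. The largest single difference was at chromosome 13, 5680001 to 5760000 (build mm9). That bin was replicated in 3 of 18 4-cell cells (16.7%) and in 22 of 28 8-cell cells (78.6%), a difference of 68.3 points.

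Members lay side by side. An adjacent bin was also a member for 437 of them (84.2%), and merging members across at most 2 kept bins gave 172 domains. Of these, 55 held 1 member, 32 held 2 and 85 held 3 or more, and the 85 contained 400 members (77.1%). The median domain spanned 0.24 Mb and the longest 1.44 Mb, and the members sum to 41.52 Mb. Over all kept bins, the difference had a Pearson's r of 0.875 between adjacent bins, 0.316 at 0.4 Mb and 0.144 at 0.8 Mb. Neighbouring bins share their cells, so this describes scale and is no test. On a chromosome, the median gap between domains was 4.08 Mb, and 50 of 153 gaps were under 2 Mb. Domains and bins that shifted later were mostly apart: a bin that shifted later by the same size lay within 1 Mb of 25 members (4.82%), compared with 29.1% of all kept bins. Near bins have similar differences and the 2 kinds of bins are opposite ends of that difference, so this share is in part set by the rule. Members were spread along the chromosomes, which were divided into 3 parts of equal length: 36.2%, 33.5% and 30.3% of the members lay in the first, middle and last part, with 32.8%, 33.6% and 33.6% of the kept bins.

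The neighbourhood of the domains was late at both stages, and the domains stood out from it at the 8-cell stage. Inside the 85 domains of 3 or more members, the 4-cell level minus the stage mean was -19.8 points, and 0.08 Mb outside it was -19.5 points. At 0.48 Mb it was -23.8 points. The 8-cell level minus its stage mean was 23 points inside, 6.48 points at 0.08 Mb and -3.28 points at 0.16 Mb. At 0.48 Mb it was -19.6 points, close to the 4-cell value there. Beside each other, the difference between the stages was 42.8 points inside, 17.2 points at 0.16 Mb and 4.24 points at 0.48 Mb.

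Shape was compared with flanks 0.4 to 1.2 Mb away on each side, which 82 of these domains had. At the 4-cell stage, 24 domains (29.3%) were replicated more often than both flanks, 39 lay between them and 19 less often than both. At the 8-cell stage, 73 (89.0%) were above both flanks, 9 were between and none was below both. Of all runs of 3 kept bins, 32.3% were above both flanks in 4-cell cells and 34% in 8-cell cells. The rule itself favours a high 8-cell level inside the domains, so these shares are given without a test. A change from below both flanks to above both was seen in 14 domains (17.1%) and in 1.98% of all runs of 3 kept bins.

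**Figure D2:**
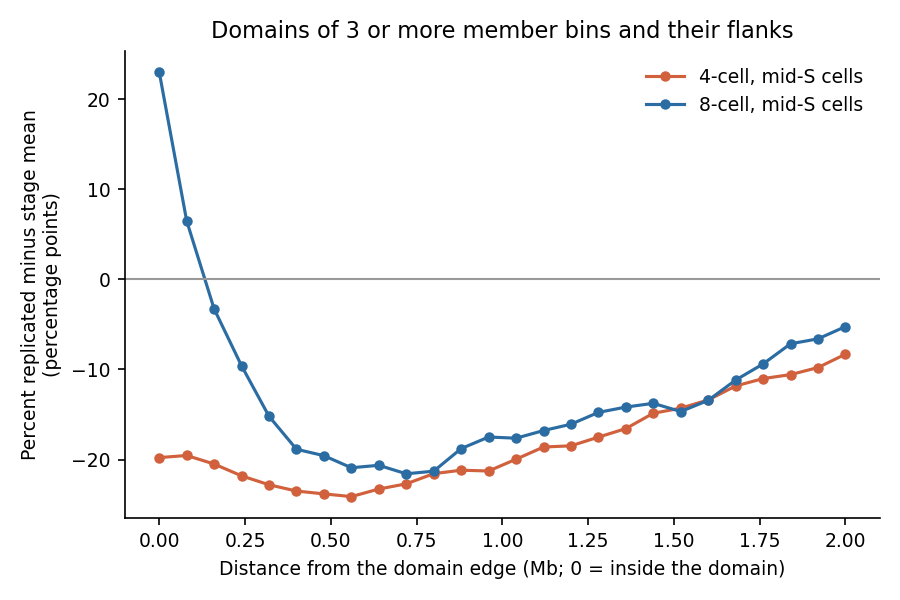
Mean level of mid-S cells, as percent replicated minus the stage mean in percentage points, inside the 85 domains of 3 or more member bins (distance 0) and at increasing distance from their edges in Mb. The 4-cell line goes from -19.8 inside to -21.6 at 0.8 Mb, and the 8-cell line from 23 inside to -19.6 at 0.48 Mb.

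The domains were named by a rule, the 10 with the most members and the 5 of at least 3 bins with the largest mean difference, 12 in all. Coordinates are 1-based in build mm9. No annotation of that build was used here, so the genes inside the domains are not named. In none of the 172 domains were the embryos of the stages fully apart. The same held for single bins: 0 of 519 members and 0% of all kept bins had every 8-cell embryo above every 4-cell embryo, and 6 kept bins (0.0203%) had every 8-cell embryo below.

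The largest domain lay at chromosome 13, 104400001 to 105840000, with 17 members. It was replicated in 47.7% of 4-cell and 91.4% of 8-cell calls, a mean difference of 50.1 points. Over 9 4-cell embryos, its level had a lowest value of 0%, a median of 35.3% and a highest value of 100%. Over 10 8-cell embryos, the lowest was 68.6%, the median 96.7% and the highest 100%. The 4-cell embryos were divided here: 5 lay below every 8-cell embryo and the others lay within the 8-cell range. The division followed the title sets in part, since this domain was at 0% in the cells of DEP_01_162, at 100% in those of DEP_01_164 and at 45.9% in those of mEmb04C.

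The second largest, at chromosome 18, 69520001 to 70800000, held 14 members and went from 29% to 72.2%. Its 4-cell embryos had a median of 17.9% and a range of 0 to 100%, and its 8-cell embryos a median of 73.2% and a range of 57.1 to 100%. Here 7 of the 9 4-cell embryos lay below every 8-cell embryo. The 4-cell cells of mEmb04C and DEP_01_162 were at 12.9% and 10.7%, and those of DEP_01_164 at 87.5%.

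Chromosome 5 carried 2 of the named domains. The one at 81760001 to 82800000, with 12 members, went from 27.8% to 71.1%. Its 4-cell embryos lay between 0 and 50% with a median of 29.2%, and its 8-cell embryos between 0 and 100% with a median of 85.4%. In this domain 8 of 10 8-cell embryos lay above every 4-cell embryo, and the sets of 4-cell cells were close, at 30% in mEmb04C and 25% in DEP. The sets of 8-cell cells were further apart, at 49.3% in DEP_01_162 and 87.5% in DEP_01_164. The other, at 8400001 to 9280000 with 9 members, went from 52.5% to 88.5%, with medians over embryos of 50% and 95%.

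The domain with the largest mean difference, 58.9 points, was a short one of 6 members at chromosome 13, 5520001 to 6000000. It contained the bin with the largest difference. Its 4-cell embryos lay between 0 and 58.3% with a median of 16.7%, and its 8-cell embryos between 33.3 and 100% with a median of 83.3%. Of the 10 8-cell embryos, 8 lay above every 4-cell embryo. The 4-cell levels were 13.3% in mEmb04C and 31.3% in DEP, and the 8-cell levels were 52.8% in DEP_01_162 and 89.6% in DEP_01_164.

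Of the other named domains, those starting in the late part of the 4-cell order were at chromosome 4, 75120001 to 76000000 (10 members, 31.7% to 75%), and chromosome 1, 113520001 to 114000000 (6 members, 16.7% to 61.3%). In the latter, the median 4-cell embryo was at 0% and the median 8-cell embryo at 83.3%. The domains starting near the middle were at chromosome 1, 6880001 to 7760000 (8 members, 43.8% to 79.0%), and chromosome 2, 146160001 to 146400000 (3 members, 42.6% to 88.5%). Also in the middle were chromosome 6, 93440001 to 94080000 (8 members, 51.5% to 85.3%), chromosome 10, 23760001 to 24720000 (11 members, 55.6% to 90.3%), and chromosome 10, 55920001 to 56480000 (7 members, 59.5% to 94.4%). In the last of these, the 4-cell embryos were divided, with a range of 0 to 100% and a median of 85.7%. Both chromosome 10 domains rest in part on embryo 6, in which chromosome 10 was unreplicated in both cells. With whole chromosomes of 1 state left out, their differences went from 41.04 to 37.3 points and from 41.3 to 37.5 points. Without embryo 6 altogether they were 33.52 and 33.49 points, under the threshold for members. The domain at 55920001 did not rest on embryo 6 alone, as its lowest value without any 1 embryo was 33 points. Embryo 6 also held chromosomes 1, 4 and 5, which carry other named domains, in opposite states between its cells. The domain at 55920001 also came to 27.5 points without cells holding a run of 25 Mb or more, and to 26.6 points with the 4-cell cells of mEmb04C only. The domain at 23760001 came to 30.6 points with the 8-cell cells of DEP_01_162 only.

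**Figure D3:**
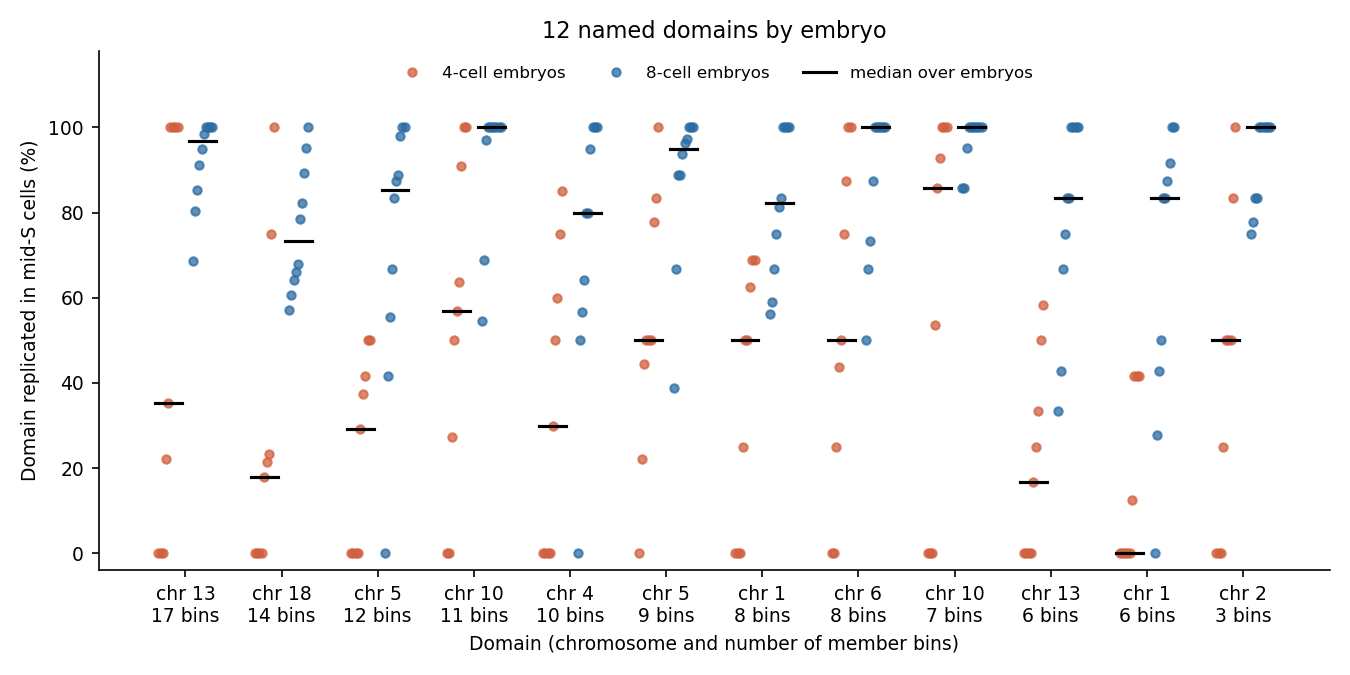
Percent of each of the 12 named domains replicated in mid-S cells (y axis), with 1 point per embryo, 9 for 4-cell and 10 for 8-cell, and a bar at the median. In every domain the 8-cell median lies above the 4-cell median, and the embryos of the stages overlap in every domain.

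The number of members per chromosome was uneven, and part of this rested on single embryos. Chromosome 10 had 78 members (4.92% of its kept bins), chromosome 13 had 53 (3.64%), chromosome 1 had 71 (2.96%) and chromosome 5 had 53 (2.91%). Chromosomes 7 and 14 had 3 each (0.179% and 0.208%). Without 4-cell embryo 6, chromosome 10 had 38 members and chromosome 13 had 103. Without 8-cell embryo 1, chromosome 10 had 128. With whole chromosomes of 1 state left out, chromosome 10 had 58 and chromosome 13 had 54.

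The 4-cell levels of the members were low in both batches. In the 10 mid-S cells of mEmb04C (5 embryos) a member was replicated in a median of 30% of cells, and the median relative to that set's mean over kept bins was -19.4 points. In the 8 mid-S 4-cell cells of the DEP sets (4 embryos) the median was 50%, or -12.2 points relative to their mean, which was itself higher (62.2% against 49.4%). Of the 519 members, 387 (74.6%) were below the mean in mEmb04C, where 48.9% of kept bins were. In DEP, 382 (73.6%) were below the mean, where 39% of kept bins were. Both sets chose the members together, so a low level in each is in part set by the rule.

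Member by member, both sets were below their means in 295 (56.8%), as were 36% of kept bins. In 92 only mEmb04C was below, in 87 only DEP was and in 45 neither was. The levels, each minus its mean, lay within 20 points of each other in 301 members (58%) and in 60.1% of kept bins. They were 40 or more points apart in 22 members (4.24%) with DEP higher and in 22 (4.24%) with mEmb04C higher, compared with 4.49% and 3.05% of kept bins. These shares of close and distant values were near those of the kept bins. Pearson's r between the sets was 0.781 over kept bins and 0.378 over members, a value that choosing the members on both sets together lowers by construction. Within DEP, the median was 25% in the 4 cells of DEP_01_162 (2 embryos), or -36.2 points relative to their mean, and 50% in the 4 cells of DEP_01_164 (2 embryos), or -13.2 points. In the same sets at the 8-cell stage, the medians were 66.7% (19.7 points above the mean, 12 cells) and 81.3% (31.2 points above, 16 cells).

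**Figure D4:**
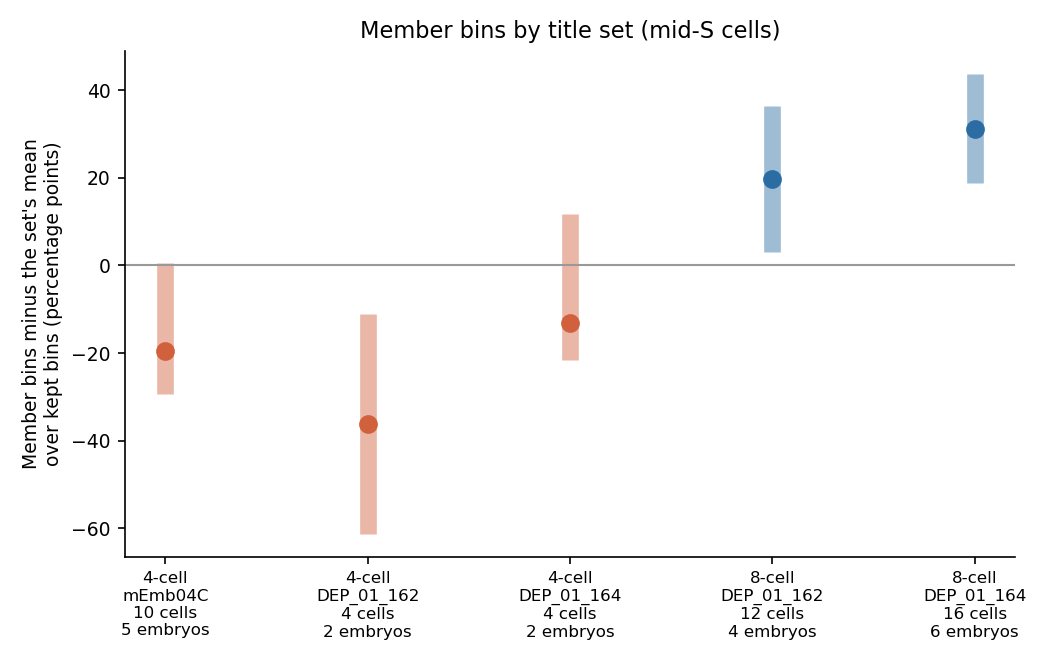
Level of the 519 member bins in mid-S cells of each title set, as percent replicated minus that set's mean over kept bins in percentage points, with the median as a point and the quartiles as a bar. The medians of the 3 4-cell sets lie at -36.2 to -13.2 points, and those of the 2 8-cell sets at 19.7 and 31.2 points.

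The same levels were read cell by cell, as the percent of the members replicated minus the percent of all kept bins replicated in that cell. In mid-S, 17 of 18 4-cell cells were below 0 and 26 of 28 8-cell cells above it. These cells chose the members, so the separation of the stages in mid-S is in part set by the rule. The exceptions were a cell of 4-cell embryo 6 at 10.2 points, one of those with whole chromosomes in 1 state, and 2 cells of 8-cell embryo 1 at -3.82 and -0.63 points. The mean over 4-cell embryos was -18.5 ± 12.4 points (SD, n = 9), with all embryos below 0. The mean over 8-cell embryos was 25 ± 10.3 points (SD, n = 10), with all above 0. The lowest 4-cell embryo was embryo 1 at -45.3 points, and the highest was embryo 6 at -0.22 points. The lowest 8-cell embryo was embryo 2, a single cell, at 1.38 points. Among cells with no run of 25 Mb or more, all 12 4-cell cells were below 0 and all 16 8-cell cells were between 17.8 and 35.1 points. Of these 12, the 10 mid-S cells of mEmb04C are of the earlier batch. Only those of embryo 7 are of the later batch, which holds all the 8-cell cells. Stage and batch are therefore hard to tell apart among these cells.

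Cells outside mid-S did not enter the rule, and 10 4-cell cells of 6 embryos and 21 8-cell cells of 10 embryos lay there. Of these embryos, 1 of the 4-cell and 8 of the 8-cell embryos also had cells in mid-S, so the embryos are not all new. In the 5 8-cell cells with under 20% of the genome replicated, the members were replicated in 6.94 to 9.66% of calls, below the cell's own level in every one. Of the 422 members called in all 5 cells, 311 (73.7%) were replicated in none of them, much like the 72.02% of kept bins. None of the 422 was replicated in all 5, compared with 5.24% of kept bins. The 8-cell cell at 26.7% had 30.1% of the members replicated, and 8-cell mid-S cells at 46.8 to 54.1% had 51.2 to 89.02%.

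Late in S phase the stages could be set side by side in few cells. Between 70 and 80% replicated, 5 8-cell cells of 3 embryos had 94.7 to 97.1% of the members replicated. The 2 4-cell cells in that range, of embryos 12 and 6, had 60.2% and 72.4%. These ranges did not overlap, but cells are not replicates here. Of the embryos in both ranges, only embryo 12 had no mid-S cell, so the others had also entered the rule. The cell of embryo 6 held an unreplicated run of 127 Mb. Above 90%, 5 4-cell cells of 3 embryos, among them the 2 near-identical cells of embryo 4 (99.97% of bins equal), had 88.1 to 96.7% of the members replicated and 6 8-cell cells had 94.8 to 99.8%. The only early 4-cell cell, of embryo 8 at 12.6% replicated, had 20.8% of the members replicated, above its own level and opposite to the mid-S pattern.

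**Figure D5:**
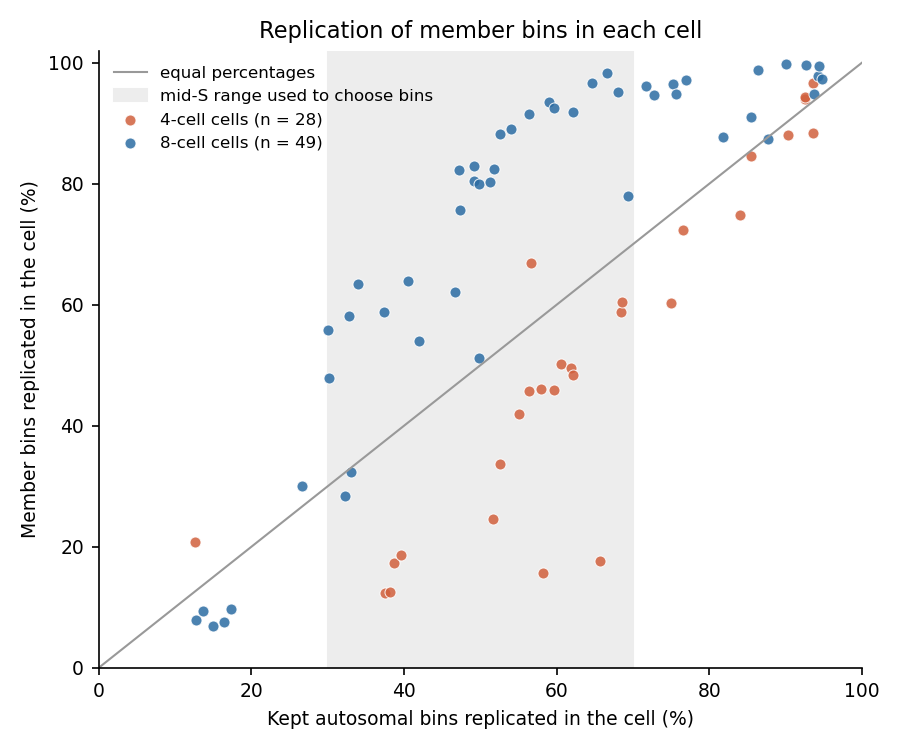
Percent of the member bins replicated (y axis) against the percent of all kept autosomal bins replicated (x axis) in each of the 28 4-cell and 49 8-cell cells, with a line of equal percentages and the mid-S range shaded. Between 30 and 70% most 8-cell cells lie above the line and most 4-cell cells below it, and the 5 8-cell cells under 20% lie below it.

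A test across all bins was run on the cells outside mid-S. Values per bin were averaged over each embryo's cells after subtracting the cell's replicated percent. Then limma was fitted with stage and the embryo's mean replicated percent as terms. This fit pools cells before and after mid-S, and 8-cell embryos 3 and 10 are means over both kinds. For 8-cell embryos 8 and 11 and 4-cell embryo 8, only cells before mid-S entered. Members lay below the cell's own level in 5 of the 6 8-cell cells before mid-S. They lay above it in 14 of the 15 after mid-S. Such values partly offset each other, so the pooled fit cannot decide on a difference late in S phase alone. With Benjamini-Hochberg adjustment over 29617 bins, 0 bins (0%) were called in either direction and the smallest adjusted p was 0.26. At an unadjusted p under 0.05, 1169 bins (3.95%) were earlier and 1298 (4.38%) later at the 8-cell stage. Among the members, 26 (5.01%) were earlier and 0 later at that unadjusted level, and the share of earlier ones is near the background. It depended on the cells used. With late-S cells only, 41 members (7.90%) and 2.32% of all bins were earlier, with median differences of 16.1 and 2.2e-09 points. Within the later batch alone, 57 members (10.98%) and 5.68% of all bins were earlier. With the title set as a block, 24 members (4.62%) and 4.90% of all bins were. Members of 1 domain share their cells, so these counts are not independent. In the fit on all cells outside mid-S, the fitted difference was above 0 in 373 members (71.9%) and in 47.4% of all bins, with medians of 9.67 points and -0.40 points. Within the later batch alone, the difference was above 0 in 446 members (85.9%) and in 57.5% of all bins, with medians of 6.53 and 2.1 points. With the title set as a block, it was above 0 in 367 members (70.7%) and in 59.5% of all bins, with medians of 7.33 and 2.55 points. In the fit on all cells outside mid-S and in that within the later batch, the members' lower quartile equalled the median of all bins. That common value was -0.40 points in the first and 2.1 points in the second. The shares above 0 depend in part on its sign and cannot be compared between these fits. No member passed the adjusted threshold, where the smallest adjusted p of a member was 0.572. On simulated data of this design, the recovery was 2.5% for bins with a change of 40 points and 75% for a change of 80 points. The simulation drew independent normal values for each bin, with its SD over the embryos of both stages. Real values are bounded and alike in neighbouring bins, so these recoveries are only a rough guide to what the fit can find.

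The 26 members with an unadjusted p under 0.05 lay in 8 domains, and their fitted differences were 32.02 to 50.2 points. All 12 members of the chromosome 5 domain at 81760001 were among them. These 12 are near neighbours that share their cells, and several had equal fitted values, so they are not separate results. With no member past the adjusted threshold, this states only where the 26 lay. Of the 9 late-S 4-cell cells, 8 (the near-identical pair included) held a run of at least 40 Mb of the rarer state, compared with 4 of 15 late-S 8-cell cells, and the part of these runs in the fit was not tested.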

How the data were processed

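The members and lists were chosen with earlier results of these data known. The deposited binary states have no unit: 1 stands for replicated, -1 for not replicated and 0 for no call. This reading was checked against the authors' replication score of each cell, a percent, which the share of 1 over called autosomal bins matches. The deposited noise score (MAD) per cell was read but not used. Per the submitters' processing notes, the build is mm9, with the aligner and caller not given in the sources used here. Embryo and batch come from the deposited annotation. Profile columns that matched no sample numbered 0.

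The 2 cells of 4-cell embryo 4 differed in 8 autosomal bins (99.97% equal, where the next pair of cells reached 96.2%), and they enter the fit as the mean of their embryo, as 1 sample, while counts of cells hold both. Percentages, domains, flanks and cell values were computed with Python 3.11.15, numpy 2.4.6 and pandas 2.3.3, and figures with matplotlib 3.10.9. Bins outside mid-S were tested with limma 3.58.1 in R 4.3.3 on embryo means, with at least 3 embryos per stage and Benjamini-Hochberg adjustment at 0.05. It was tested on simulated data with 200 changed bins. Alternatives changed the mid-S range, the calls needed, the weight of embryos, the sets, smoothing, gaps, and each embryo in turn. Leaving out whole chromosomes of 1 state, the title set as a block, and the alternatives for chromosome counts and domain shape, were added after seeing the data. The rule for named domains stands in the report. Genes and sequences were not placed, since the reference tables are of another build.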

Additional observations from a re-analysis of the deposited data

Results flagged for a closer look

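Each named domain's embryo values and each stage's member levels were searched for a value far from its group, in 28 groups of 6 to 10 embryos. Chance marks about 1 in 20 such groups, and 1 value was found. In the chromosome 4 domain at 75120001, 8-cell embryo 2 was at 0% in mid-S, where the nearest of the 10 embryos was at 50%. That embryo had a single mid-S cell.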

How the results depend on the processing

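The number of members ranged widely with the cells used. It was 906 with a mid-S range of 35 to 65%, 843 without cells that hold a run of 25 Mb or more, 856 with 4-cell cells of mEmb04C only, 1642 with those of DEP only and 957 with 8-cell cells of DEP_01_164 only. Domains numbered 260, 261, 276, 355 and 264 in the same order. Without cells holding a run of 25 Mb or more, the 4-cell cells left were those of mEmb04C and of embryo 7 only. Leaving out each embryo in turn gave 417 to 783 members and 160 to 232 domains, with the highest count, 783, without 8-cell embryo 1. In every one of these 19 sets 256 members (49.3%) met the rule. Of the 519 members, between 279 (53.8%, with 8-cell cells of DEP_01_162 only) and 519 met the rule under the other alternatives, 383 of them without cells that hold long runs. At least 516 kept a difference above 0 under each. Domains above both flanks numbered 70 to 74 at the 8-cell stage. The mean differences of the 12 named domains ranged from 26.6 to 73.4 points. Some fell below the 35-point threshold under an alternative. Their lowest values were 27.9 points (chromosome 1 at 6880001), 29.7 and 31.8 points (chromosome 5 at 81760001 and 8400001) and 32.5 points (chromosome 6). Those on chromosome 10 came to 30.6 points (at 23760001) and 26.6 points (at 55920001). The lowest value of any other named domain was 36.7 points, on chromosome 18.

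Outside mid-S, 4 bins were earlier and 0 later with late-S cells only, 4 earlier and 21 later with DEP only, and 0 earlier and 7 later with the title set as a block. Leaving out each embryo gave 0 to 33 earlier, with 33 earlier and 3 later without 4-cell embryo 6, and 6 earlier and 8 later without 4-cell embryo 8. Members called numbered 0 in every such fit. The median fitted difference of the members was 3.002 to 19.2 points without 1 embryo. The lowest was without 4-cell embryo 12, where the median of all bins was 2.54 points, close to that of the members. In that fit the difference was above 0 in 78.6% of members and in 55.9% of all bins. The highest was without 4-cell embryo 8, where the median of all bins was -0.65 points. The fits on early-S cells only and without long runs of the rarer state gave no value, as too few 4-cell embryos remained. No paired analysis was possible because the labels tie no 4-cell embryo to an 8-cell embryo, so the title set is the only block. Read depth is unknown, and the 18 4-cell cells limit the precision.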
